A study of Mus musculus with 9 samples.

Results

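The 40 genes described here encode proteins of the nucleolar line that makes ribosomes. They were chosen by name, as nucleolar and RNA polymerase I genes known to be linked to the transcription factor MYC. The choice was made with earlier results of these data known. All 40 were found among the 54281 listed genes, and all 40 were among the 23834 that passed the filter on low counts. By role they comprise 7 genes for transcription of ribosomal RNA by RNA polymerase I, 7 for nucleolar chaperones, scaffolds and a helicase, 7 for proteins of small nucleolar ribonucleoproteins (snoRNPs), 10 for processing and assembly of the small subunit and 9 for the large subunit.

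Ribosomes are built in the nucleolus. RNA polymerase I transcribes the ribosomal RNA precursor there, snoRNPs guide its methylation and pseudouridylation, and assembly factors cut, fold and join it with ribosomal proteins into the subunits that leave for the cytoplasm. MYC is known as an activator of genes at every one of these steps, and in many cell types more MYC goes with larger nucleoli and more ribosome production.

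RNA was sequenced from Comma-1D, a mouse mammary epithelial line, in 3 populations sorted by the surface proteins Sca-1 and EpCAM. The bi population is high for both, L is Sca-1 low and EpCAM high, and B is Sca-1 high and EpCAM low. Each population came in a MYC arm (cells transduced with an activated MYC oncogene), a Her2 arm (transduced with an activated Her2 oncogene) and a control arm, with 1 library for each population and arm. All 9 samples thus share one cell line and one growth medium. The labels do not say what the control cells received, whether the arms are separate cultures or clones, what drives the transgenes, or which of the RNA kits they name was used for which sample. An arm was therefore compared over 3 libraries, 1 from each population, and a population over 3 libraries, 1 from each arm. The spread behind each test comes from these libraries and may be technical in part. It also holds any difference between populations in the effect of an arm, since no population and arm has a second library.

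The libraries held 46.9 to 98.9 M estimated reads, fewest in B MYC and most in bi control, and 9.70% to 16.1% of them fell on ribosomal RNA loci. Levels are given as CPM, reads scaled to a common library size with TMM factors. Myc was at 188 to 285 CPM in the MYC libraries, against 83.3 to 114 CPM in the controls, and Erbb2, the mouse gene for Her2, at 189 to 651 CPM in the Her2 libraries against 53.3 to 88.9 CPM in the controls. Ly6a, the gene for Sca-1, was lowest in the L library and Epcam in the B library of every arm. The 8 epithelial markers checked summed to 685 to 856 CPM in bi and 1134 to 2401 CPM in L, but to 2.31 to 6.28 CPM in B, where Epcam was at 0.183 to 0.764 CPM. By these 8 markers the epithelial label held in bi and L, while in B they were near 0. The 8 basal and myoepithelial markers were not near 0 in B. They summed to 1775 to 3809 CPM there, against 1620 to 3649 in L and 3356 to 5266 in bi. The 8 fibroblast markers summed to 509 to 598 CPM in B, 247 to 445 in L and 243 to 489 in bi.

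The members took 0.380% to 0.609% of the reads. Their summed level was 4001 CPM in bi MYC, 4624 in bi Her2 and 6417 in bi control. In L it was 3342 CPM with MYC, 4702 with Her2 and 5159 in control, and in B it was 4270 CPM with MYC, 5087 with Her2 and 4139 in control. The bi control library stood highest and L MYC lowest. One by one, bi control was the highest of the 9 libraries for 34 of 40 members, as it was for 10.1% of all genes, and B Her2 for the other 6, against 11.7%. L MYC was the lowest library for 27 members, against 13.8% of all genes, B MYC for 7 against 16.7%, B control for 5 against 11.3% and bi Her2 for 1 against 12.8%. The highest library exceeded the lowest by 1.54 times for Ubtf at one end and 3.29 times for Rrp1b at the other.

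**Figure D1:**
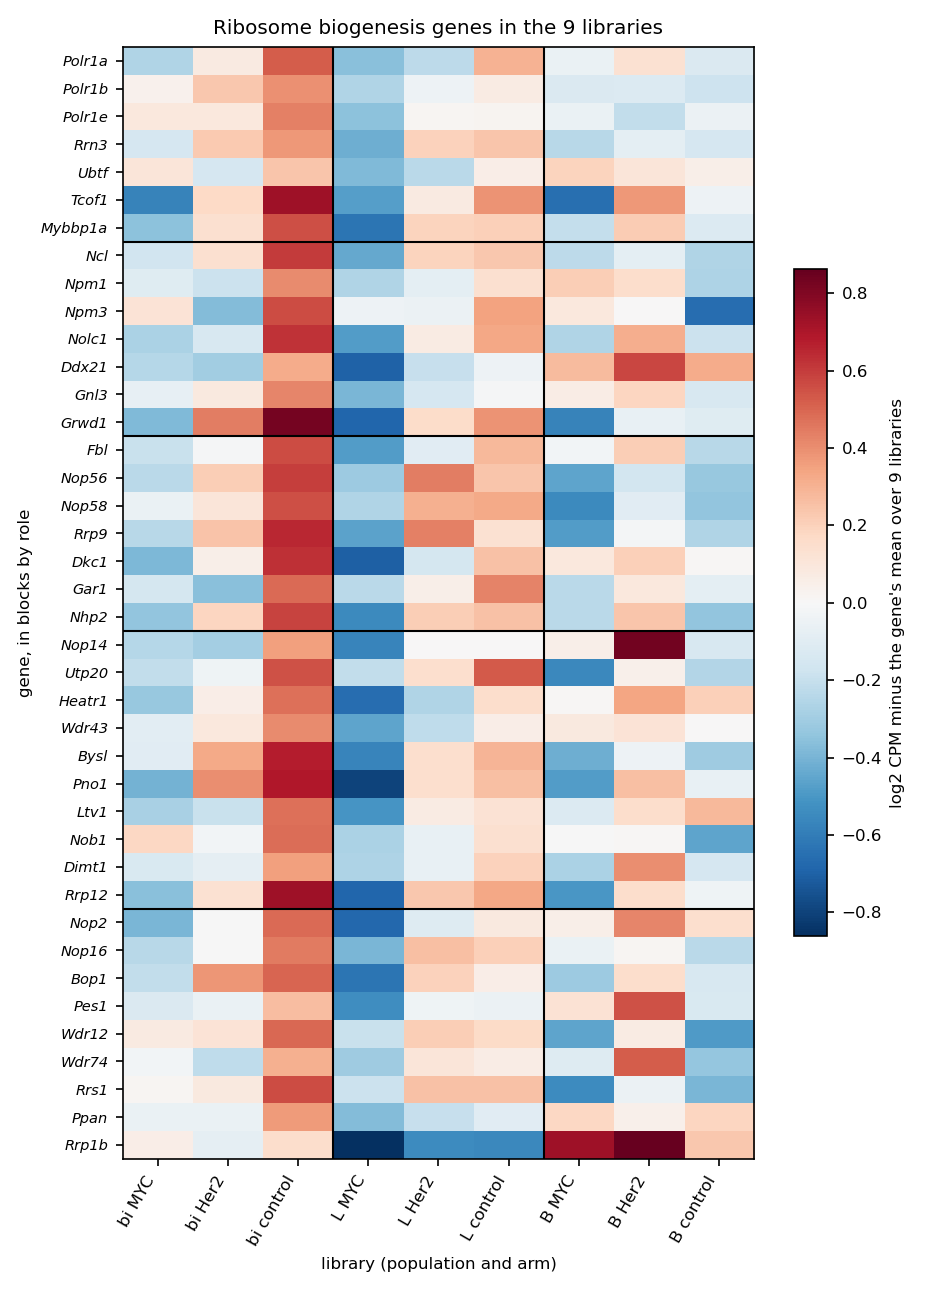
Each row is 1 of the 40 genes and each column 1 library (population and arm). Colour gives log2 CPM minus the gene's mean over the 9 libraries, red for above and blue for below it. Rows are grouped by role. The bi control column is red throughout and is the highest library for 34 genes, while L MYC is the lowest for 27.

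Per length, on the deposited TPM scale, Npm1 was the most abundant member, with a mean of 459 TPM and a range of 377 to 599 TPM over the 9 libraries. It encodes nucleophosmin, a histone and ribosomal protein chaperone of the granular nucleolus. Ncl, for the RNA-binding chaperone nucleolin, averaged 195 TPM and ranged over 145 to 289.7 TPM. Nop58, a core protein of box C/D snoRNPs, averaged 152 TPM. The deposited effective length was 121 to 132 bases for Nop58, 230 to 250 for Npm1 and 683 to 733 for Ncl. The order by TPM therefore depends on these lengths. Dimt1, for a ribosomal RNA dimethyltransferase, was the lowest member at a mean of 8.29 TPM. In CPM, Npm1 (chromosome 11, 33152287 to 33163206, minus strand, mm10) was at 524 in bi, 470.1 in L and 653 in B with MYC, 496 in bi, 532 in L and 625 in B with Her2, and 746 in bi, 620.2 in L and 468 in B in the controls. Its arms overlapped, with B above bi and L in the MYC and Her2 arms and below them in the controls. Ncl (chromosome 1, 86344719 to 86359400, minus strand) was at 658 CPM in bi, 543 in L and 631 in B with MYC, 809 in bi, 843 in L and 696 in B with Her2, and 1121 in bi, 866 in L and 615 in B in the controls. All 3 MYC libraries lay below all 3 Her2 libraries, while the B control lay among the MYC libraries.

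The first comparison was of the MYC arm with control, and no member was called higher with MYC. Instead, 39 of 40 members had a log2 fold change of MYC over control below 0, where 47.1% of all genes did, and the median was -0.46 against 0.03 over all genes. The members ranged from -0.94 for Tcof1 to 0.02 for Rrp1b. None passed an adjusted p of 0.05 (edgeR quasi-likelihood test on all 9 libraries with population as a block, Benjamini-Hochberg adjustment over all 23834 genes), where 0.365% of all genes did, so no single gene is called as changed. At an unadjusted p under 0.05 there were 21 members lower and 0 higher, against 7.31% of all genes lower and 6.6% higher. DESeq2's Wald test called 4 members lower (Tcof1, Grwd1, Pno1 and Rrp12), where it called 2.53% of all genes lower, and limma-trend called 0. In 11 members all 3 MYC libraries lay below all 3 controls, as they did in 7.02% of all genes: Tcof1, Mybbp1a, Nolc1, Grwd1, Gar1, Heatr1, Pno1, Ltv1, Rrp12, Nop2 and Bop1. These are levels relative to all reads of a bulk sample, in which fewer cells of a type and less RNA of a gene per cell cannot be told apart.

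**Figure D2:**
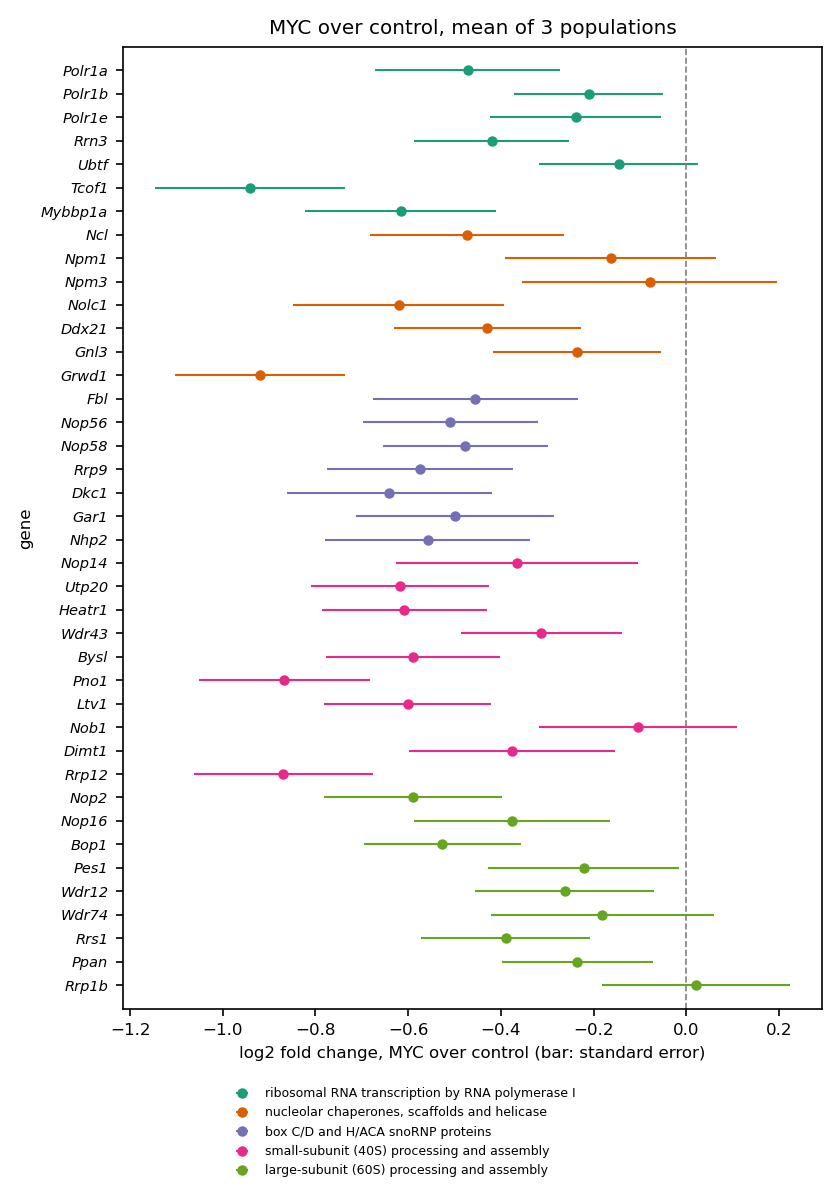
Points are log2 fold changes of MYC over control for the 40 genes, averaged over the 3 populations, coloured by role, and bars are standard errors from edgeR. Of the points, 39 lie left of 0, from -0.94 for Tcof1, and only Rrp1b lies right of it, at 0.02.

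Among the polymerase I genes the median log2 fold change of MYC over control was -0.42. Of the 7, 4 had an unadjusted p under 0.05, where 7.31% of all genes were lower at that level. Tcof1 (chromosome 18, 60813755 to 60848971, minus strand), which encodes treacle, a nucleolar platform for polymerase I, was at 48.8 CPM in bi, 52.3 in L and 46.4 in B with MYC, 81.8 in bi, 76.7 in L and 94.2 in B with Her2, and 121 in bi, 95.1 in L and 70.7 in B in the controls. The 3 MYC libraries were close to each other and below all 6 others. Its mean was 49.2 ± 2.95 CPM with MYC and 95.6 ± 25.1 in control (SD, n = 3 each), with a log2 fold change of -0.94 (SE 0.20, edgeR adjusted p = 0.0789). Mybbp1a, a nucleolar regulator of ribosomal RNA synthesis, stood at -0.62, Polr1a, the largest polymerase subunit, at -0.47 and the initiation factor gene Rrn3 at -0.42. The values of the other subunits were nearer to 0, at -0.21 for Polr1b and -0.24 for Polr1e, as was that of Ubtf, for the upstream binding factor, at -0.15.

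The chaperones, scaffolds and helicase had a median of -0.43, and 3 of 7 had an unadjusted p under 0.05 (7.31% of all genes lower). Grwd1 (chromosome 7, 45825223 to 45830944, minus strand), a WD-repeat histone chaperone also found on large-subunit precursors, had the smallest p of all members. It was at 28.8 CPM in bi, 23.3 in L and 25.1 in B with MYC, 50.7 in bi, 41.9 in L and 35.8 in B with Her2, and 66.4 in bi, 49.1 in L and 34.8 in B in the controls. Every MYC library was below every other library. The log2 fold change of MYC over control was -0.92 (SE 0.18, edgeR adjusted p = 0.0656), from means of 25.7 ± 2.80 CPM with MYC and 50.1 ± 15.8 in control. Nolc1, a scaffold that binds snoRNPs, was at -0.62 and Ncl at -0.47. The nucleophosmin family genes Npm1 (-0.16) and Npm3 (-0.08) were the nearest to 0 of this role. Between Ncl and Npm1 lay the helicase gene Ddx21 at -0.43 and Gnl3, for the GTPase nucleostemin, at -0.24.

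Of the snoRNP genes 6 of 7 had an unadjusted p under 0.05 (7.31% of all genes lower). Their median was -0.51, with a narrow range of -0.64 to -0.45. The pseudouridine synthase gene Dkc1 was lowest, and Fbl, for the methyltransferase fibrillarin, was the one of the 7 that missed that level. The box C/D core genes Nop56 and Nop58 were at -0.51 and -0.48, the U3-specific protein gene Rrp9 at -0.57, and the H/ACA genes Nhp2 and Gar1 at -0.56 and -0.50.

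Small-subunit factors had the lowest median of the roles, -0.60, and 6 of 10 had an unadjusted p under 0.05 (7.31% of all genes lower). Pno1 (chromosome 11, 17203198 to 17211568, minus strand), which partners the nuclease Nob1 in late small-subunit maturation, was at 33.3 CPM in bi, 25.4 in L and 31.7 in B with MYC, 58.2 in bi, 48.8 in L and 52.9 in B with Her2, and 71.5 in bi, 52.9 in L and 42.2 in B in the controls. Rrp12 (chromosome 19, 41862851 to 41896173, minus strand), a repeat protein needed for export of subunit precursors in yeast, was at 33.3 CPM in bi, 26.6 in L and 30.3 in B with MYC, 46.9 in bi, 50.2 in L and 47.6 in B with Her2, and 71.2 in bi, 53.9 in L and 41.8 in B in the controls. In both genes the MYC libraries lay below all 6 others. Against control the log2 fold change was -0.87 for Pno1 (SE 0.18, edgeR adjusted p = 0.0764) and -0.87 for Rrp12 (SE 0.19, adjusted p = 0.0821). Utp20 (-0.62), Heatr1 (-0.61), Ltv1 (-0.60) and Bysl (-0.59), which act in the early processome or in later assembly, followed. The dimethyltransferase gene Dimt1 was at -0.38, the processome genes Nop14 and Wdr43 at -0.37 and -0.31, and the nuclease gene Nob1 at -0.10.

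Large-subunit factors had the median nearest to 0, -0.26, and 2 of 9 had an unadjusted p under 0.05 (7.31% of all genes lower). These were the methyltransferase gene Nop2 (-0.59) and Bop1 (-0.53). Bop1 forms a complex with Pes1 and Wdr12, whose values were -0.22 and -0.26. The assembly factor genes Rrs1, Nop16, Ppan and Wdr74 stood at -0.39, -0.38, -0.23 and -0.18. Rrp1b, the one member above 0, is taken up with the populations below.

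Within single populations, where 1 library is set against 1 and the ratio alone allows no test, the members did not stand alike. The median log2 ratio of MYC over control was -0.66 in bi and -0.62 in L, with all 40 members below 0 in each, against 45.9% and 47.3% of all genes. In B it was -0.03, with 22 of 40 members below 0, against 52% of all genes. Its sign in B moved with the scaling: it was 0.03 with DESeq2 size factors, -0.19 with library totals alone and -0.39 on deposited TPM (the first 2 of these chosen after seeing the data). The last 2 scalings also moved the median of all genes in B, to -0.19 with library totals and -0.15 on TPM, against -0.03 with TMM. Members differed most in B, from -0.61 for Tcof1 to 0.74 for Npm3. Tcof1, Grwd1, Rrp12, Pno1 and Ltv1 were below 0 in B as well as in bi and L, and 22 members were lower in every population, as 18.1% of all genes were.

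The B MYC library was set against its additive expectation with an added term, chosen with earlier results of these data known. That expectation rests on all other libraries, those with Her2 included. The term therefore does not test the MYC over control ratio of B alone against those of bi and L. It also draws on the MYC over Her2 ratio, with medians of -0.33 in B, -0.50 in L and -0.18 in bi. Over the members the term had a median of 0.35 on the log2 scale, with 38 of 40 above 0 where 46% of all genes were. Still, edgeR called 0 members and 0 of all genes. With library totals in place of TMM that median was 0.13, with 30 above 0. The median of the term over all genes was then -0.27, against -0.06 with TMM. At an unadjusted p under 0.05 there were 0 members, against 1.14% of all genes higher and 2.39% lower, and limma-trend also called 0 members. The largest single departure, 0.71 for Dkc1, had an SE of 0.35. With the B libraries left out, 14 of 40 members fell with MYC at an adjusted p of 0.05, alongside 844 of 24492 genes tested, 2.63% of which fell: Tcof1, Mybbp1a, Nolc1, Grwd1, Fbl, Dkc1, Nhp2, Utp20, Heatr1, Bysl, Pno1, Rrp12, Nop2 and Bop1. With L or bi left out, 0 members passed, where 0.152% and 0.0341% of all genes did. Leaving out B control alone gave 4 (Tcof1, Grwd1, Pno1 and Rrp12), where 0.538% of all genes were called lower, and B Her2 alone gave 2 (Tcof1 and Grwd1), where 1.34% were, while each other library left out gave 0.

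**Figure D3:**
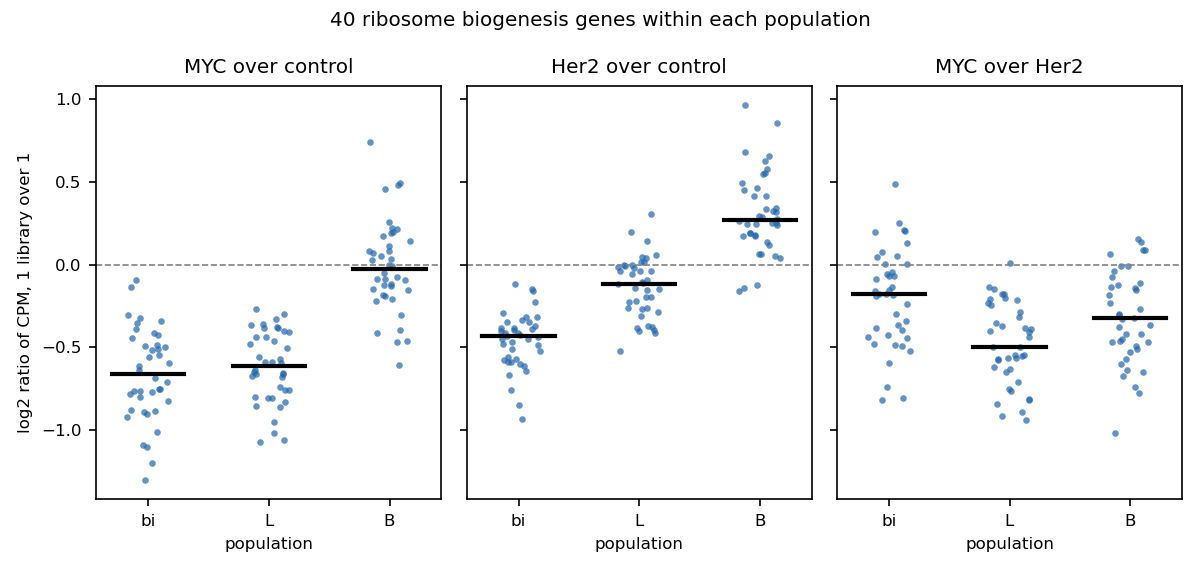
Each point is the log2 ratio of CPM of 1 gene between 2 libraries of one population, for MYC over control, Her2 over control and MYC over Her2, and black lines are medians of the 40 genes. The panels share libraries. For MYC over control the medians are -0.66 in bi, -0.62 in L and -0.03 in B, and for Her2 over control -0.44 in bi, -0.12 in L and 0.27 in B.

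Values of other gene groups that moved beside the members were as follows. Myc itself rose with MYC by 1.21 on the log2 scale (SE 0.20, edgeR adjusted p = 0.0466), and so did Mxd4 by 1.66 (SE 0.26, adjusted p = 0.0395), which encodes a repressor that competes for MYC's partner MAX. Of 20 G1/S genes 9 fell and 0 rose, with a median of -1.26, where 0.264% of all genes were called lower and 0.101% higher. Their summed level was 874 CPM in bi MYC, 975 in L MYC and 739 in B MYC. In the controls it was 2657 in bi, 2204 in L and 1215 in B. Whether the cycling state of the cells has a part in the members' levels was not tested. The epithelial, basal, fibroblast, endothelial, immune and adipocyte markers gave no call with MYC, and 1 of 8 luminal markers rose. The basal markers had a median of -0.61, with 6 of 8 below 0.

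Promoters are shown because CACGTG, the E-box bound by MYC with MAX, can be read directly beside these values. RefSeq windows (GRCm38.p6) of 250 bases before to 50 after the start were given for 34 of the 40 members. Both strands were searched for CACGTG, which reads the same on each, and for the variant CACGCG, and overlapping matches were kept. CACGTG stood in 9 of 34 members (26.5%), against 8.09% of all genes with a window, CACGCG in 11 (32.4%) against 10.5%, and either in 18 (52.9%) against 17.2%. Member windows were richer in G and C, with a median of 57.8% against 52.7%. Among the 23623 windows with 46.0% to 77.9% G and C, a wide band that covers most member windows, 8.56% held CACGTG. Counted by window, it stood in 21.4% of the 42 member windows and 7.15% of all 32851. In 7 of the 9 member windows with CACGTG (77.8%) a copy lay after the start, against 15.2% of all windows with CACGTG. The 4 windows printed here belong to the 4 members with CACGTG and the lowest MYC over control values, with CACGTG in capitals. They lie at chr7:45830740-45831039 (minus strand) for Grwd1, chr11:17211540-17211839 (minus strand) for Pno1, chr10:88826765-88827064 (minus strand) for Utp20 and chr11:72441077-72441376 (plus strand) for Mybbp1a. The motif begins at base 34 from the start in Grwd1, at 37 in Pno1 and Utp20 and at 40 in Mybbp1a.
Grwd1: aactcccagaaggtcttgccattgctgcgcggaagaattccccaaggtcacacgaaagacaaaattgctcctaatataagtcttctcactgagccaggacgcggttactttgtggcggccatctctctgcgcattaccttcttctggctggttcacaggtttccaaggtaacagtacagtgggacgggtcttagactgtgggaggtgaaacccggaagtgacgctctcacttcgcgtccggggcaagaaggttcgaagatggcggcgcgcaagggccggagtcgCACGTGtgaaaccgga
Pno1: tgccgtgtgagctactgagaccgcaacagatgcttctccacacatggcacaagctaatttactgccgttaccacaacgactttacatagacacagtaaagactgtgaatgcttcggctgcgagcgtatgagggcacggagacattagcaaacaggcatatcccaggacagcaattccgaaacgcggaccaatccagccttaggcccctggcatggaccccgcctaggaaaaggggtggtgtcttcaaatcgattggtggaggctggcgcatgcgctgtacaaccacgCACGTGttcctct
Utp20: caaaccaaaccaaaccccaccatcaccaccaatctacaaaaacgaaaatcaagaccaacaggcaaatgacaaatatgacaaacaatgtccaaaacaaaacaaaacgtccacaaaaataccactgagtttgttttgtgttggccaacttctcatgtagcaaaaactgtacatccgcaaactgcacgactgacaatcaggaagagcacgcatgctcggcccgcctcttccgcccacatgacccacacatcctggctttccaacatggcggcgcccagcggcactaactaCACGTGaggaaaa
Mybbp1a: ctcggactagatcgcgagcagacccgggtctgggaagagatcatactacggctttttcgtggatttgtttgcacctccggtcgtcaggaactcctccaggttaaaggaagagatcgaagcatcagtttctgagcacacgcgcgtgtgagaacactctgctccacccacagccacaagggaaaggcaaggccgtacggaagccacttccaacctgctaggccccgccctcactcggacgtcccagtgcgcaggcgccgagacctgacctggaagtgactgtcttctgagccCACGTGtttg
The median log2 fold change of MYC over control was -0.60 in the 9 members with CACGTG (range -0.92 to -0.22) and -0.38 in the 25 without (-0.64 to 0.02). These ranges overlap, and a match is a string of letters, not a measured binding site.

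Beyond the 40, 137 of 138 other listed ribosome biogenesis genes were tested. Of these 0 were called for MYC against control, where 0.365% of all genes were. At an unadjusted p under 0.05, 25 were lower and 1 higher, against 7.31% and 6.6% of all genes. Their median was -0.26, against 0.03 over all genes. By group the median was -0.27 over 44 other small-subunit factors, -0.31 over 48 large-subunit factors, -0.25 over 10 snoRNP genes and -0.40 over 14 genes of the nuclear exosome, which trims precursor RNA. It was 0.02 over 10 other polymerase I genes and 0.22 over 11 snoRNA host genes. Exosc8, an exosome subunit gene, had the smallest p, at a mean of 16.3 CPM with MYC and 33.2 in control (-0.996, edgeR adjusted p = 0.0599). Rrp15 was at -0.73 (adjusted p = 0.0933), Pwp2 at -0.71, Ruvbl1 at -0.62, Taf1b at 0.48 and the snoRNA host Gas5 at 0.57, the last at a mean of 167 CPM with MYC and 102 in control.

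Her2 was compared with the same 3 control libraries. Against them 0 members passed (edgeR, 0.021% of all genes called), 0 had an unadjusted p under 0.05 (4.75% of all genes lower and 4.05% higher), and DESeq2 and limma-trend called 0. The median was -0.11 against -0.01 over all genes, with 32 of 40 below 0 where 51.4% of all genes were, and the members ranged from -0.35 to 0.13. In 0 members did the 3 Her2 libraries lie all below or all above the controls, as 3.54% and 3.07% of all genes did. The roles had medians of -0.16 for polymerase I, -0.17 for chaperones and scaffolds, -0.08 for snoRNP genes, -0.13 for the small subunit and 0.08 for the large subunit. Beside these values, 0 G1/S genes and 0 cell type markers were called with Her2. At an unadjusted p under 0.05 (edgeR), 7 of 8 basal, 4 of 8 luminal, 4 of 7 fibroblast and 1 of 8 epithelial markers were lower. Higher at that level were 2 epithelial markers and 1 each of the luminal, fibroblast, endothelial and immune ones. Their part was not tested.

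Gar1 (chromosome 3, 129824912 to 129831396, minus strand) had the smallest p. It was at 14.3 CPM in bi, 19.1 in L and 19.6 in B with Her2, 16.6 in bi, 15.6 in L and 15.7 in B with MYC, and 25.8 in bi, 24.8 in L and 17.4 in B in the controls. Her2 was below control in bi and L and above it in B, and the log2 fold change was -0.35 (SE 0.21, edgeR adjusted p = 0.769). Ltv1 (chromosome 10, 13178140 to 13193168, minus strand), an assembly factor of the small-subunit beak, was at 28.5 CPM in bi, 34.2 in L and 36.2 in B with Her2, 26.8 in bi, 22.9 in L and 30.1 in B with MYC, and 45.4 in bi, 35.6 in L and 39.6 in B in the controls. Each Her2 library was below the control of its population, but the groups overlapped. Ppan (chromosome 9, 20888175 to 20892178, plus strand), a large-subunit factor, was at 44.3 CPM in bi, 40.3 in L and 47.7 in B with Her2, 44.4 in bi, 35.6 in L and 52.3 in B with MYC, and 59.6 in bi, 43.0 in L and 52.6 in B in the controls. The groups overlapped, and L was lowest in every arm. Heatr1 (chromosome 13, 12395027 to 12440289, plus strand), a processome protein that also acts in polymerase I transcription, was at 88.4 CPM in bi, 70.8 in L and 107 in B with Her2, 67.6 in bi, 53.9 in L and 85.6 in B with MYC, and 118 in bi, 94.4 in L and 97.7 in B in the controls. For these 3 genes the log2 fold changes of Her2 over control were -0.28, -0.22 and -0.24.

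By population the Her2 over control medians were -0.44 in bi, where all 40 members were below 0 (55.3% of all genes), -0.12 in L, where 31 were (51.8%), and 0.27 in B, where 37 were above 0 (47.8%). In B the members above 0.5 numbered 8, led by the small-subunit factor Nop14 at 0.97. On deposited TPM the median was 0.0831 in B, with 28 above 0, and -0.40 in L, with all 40 below 0, where the medians of all genes were -0.07 and -0.12. An added term for the B Her2 library had a median of 0.24 over the members, with 35 above 0 where 49% of all genes were. This term, too, was chosen with earlier results known and rests on all other libraries, those with MYC included. It does not test the Her2 over control ratio of B alone against those of bi and L. EdgeR called 0 members and 2 genes in all (0.00839%), 0 members had an unadjusted p under 0.05 (3.75% of all genes higher and 4.01% lower), and limma-trend called 0 members. With library totals in place of TMM, 10 members were higher at that unadjusted level and 38 were above 0, but 0 were called. The median of all genes was then 0.05, against -0.02 with TMM. With limma-trend, and with no filter, 1 member was higher at that level. Nop14 departed most, by 0.88 (SE 0.39, edgeR adjusted p = 0.656).

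The MYC libraries were also set against the Her2 libraries, so both earlier comparisons share libraries with this one, and Pno1 fell with MYC. It averaged 30.1 ± 4.17 CPM with MYC and 53.3 ± 4.70 with Her2 (SD, n = 3 each), a log2 fold change of -0.83 (SE 0.18, edgeR adjusted p = 0.0368). It was the 1 member called, where 2.13% of all genes were called lower and 4.57% in either direction. The call did not hold with population out of the model (adjusted p = 0.257) or with any of L MYC, L Her2, L control, bi MYC, bi Her2 and B Her2 left out (0.0621 to 0.177), or with the L or bi population left out (0.256 and 0.164). Leaving out B control gave 7 members (Tcof1, Grwd1, Nhp2, Bysl, Pno1, Rrp12 and Bop1), where 3.29% of all genes were called lower. DESeq2 called Tcof1 and Grwd1 beside Pno1, where it called 3.72% of all genes lower. The median over the members was -0.34 against 0.02 over all genes, 38 of 40 were below 0 (48.5% of all genes), 12 were lower at an unadjusted p under 0.05 (8.73%), and in 16 all 3 MYC libraries lay below all 3 Her2 libraries (7.19%).

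Lower CPM with MYC than with Her2 was seen for 29 members in bi (48.4% of all genes), 39 in L (46.9%) and 35 in B (49.1%), and 29 were lower in all 3 (17.3% of all genes). The medians were -0.18 in bi, -0.50 in L and -0.33 in B, and their order depended on the scaling. On deposited TPM they were -0.48 in bi, -0.19 in L and -0.53 in B, and those of all genes -0.10, 0.12 and -0.06. With library totals in place of TMM they were -0.36 in bi, -0.17 in L and -0.44 in B, and those of all genes -0.15, 0.38 and -0.10. Npm3 alone was higher with MYC in all 3. Grwd1 (-0.72, SE 0.18, edgeR adjusted p = 0.0561) and Tcof1 (-0.78, SE 0.20, adjusted p = 0.0619) came next by p, followed by Bop1 (chromosome 15, 76452989 to 76477277, minus strand). Bop1 was at 55.6 CPM in bi, 41.7 in L and 51.7 in B with MYC, 84.0 in bi, 73.8 in L and 71.5 in B with Her2, and 91.0 in bi, 66.9 in L and 58.6 in B in the controls. The MYC libraries were below all 6 others, and its log2 fold change of MYC over Her2 was -0.63 (SE 0.17, adjusted p = 0.0703). Of the other biogenesis genes, the exosome nuclease gene Dis3 (-0.90, adjusted p = 0.0192), Exosc8 (-0.79, adjusted p = 0.0491) and the large-subunit remodelling ATPase gene Mdn1 (-0.65, adjusted p = 0.0471) fell with MYC, and Nop53 rose (0.83, adjusted p = 0.0491). Of the G1/S genes 16 of 20 fell, with a median of -1.12, where 2.13% of all genes were called lower. Of the cell type markers 3 of 8 luminal, 1 of 8 basal and 2 of 7 fibroblast genes rose with MYC, and 0 epithelial, endothelial, immune or adipocyte ones were called. The part of these differences in the members' values was not tested.

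Of the population comparisons, only L against B gave calls in the edgeR test on TMM-scaled counts of all libraries. There 2 members fell in L, Rrp1b and Ddx21 (9.26% of all genes called lower, 20.8% in either direction), with 0 higher. The median was -0.02 and 21 of 40 members were below 0, against 47.1% of all genes. Rrp1b (chromosome 17, 32036100 to 32062865, plus strand), a nucleolar protein related to the yeast large-subunit factor Rrp1, was at 19.4 CPM with MYC, 24.2 with Her2 and 23.9 in control in L, at 36.5, 33.3 and 39.0 in the same arms of bi, and at 58.2, 63.9 and 41.3 in those of B. No population overlapped another, L lowest and B highest. L averaged 22.5 ± 2.68 CPM and B 54.5 ± 11.7 (SD, n = 3 each), a log2 fold change of -1.27 (SE 0.21, edgeR adjusted p = 0.00202), and it stayed called in all 21 alternatives run.

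Ddx21 (chromosome 10, 62580251 to 62602281, minus strand), an RNA helicase of polymerase I and snoRNA handling, was at 194 CPM with MYC, 274 with Her2 and 305 in control in L, at 266, 256 and 392 in the same arms of bi, and at 380.2, 469 and 393 in those of B. All 3 L libraries were below all 3 B libraries. The log2 fold change of L over B was -0.71 (SE 0.20, edgeR adjusted p = 0.0326), and its adjusted p was 0.0532 to 0.149 with any of B MYC, B Her2, L control, L MYC, L Her2 or bi MYC left out, 0.0859 without arm in the model and 0.0528 to 0.221 without any one arm. Leaving out B control gave 7 calls, all lower in L, among them Heatr1, Nop14, Dkc1, Nop2 and Pes1, where 10.5% of all genes were called lower. With all libraries Heatr1, at -0.45 (adjusted p = 0.110), and Nop58, at 0.45 (adjusted p = 0.111), had the next smallest p. Nop58 (chromosome 1, 59684971 to 59719044, plus strand) was at 126 CPM with MYC, 186 with Her2 and 189 in control in L, at 145, 162 and 221 in the same arms of bi, and at 103, 141 and 119 in those of B. It was higher in L and in bi than in B within every arm.

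**Figure D4:**
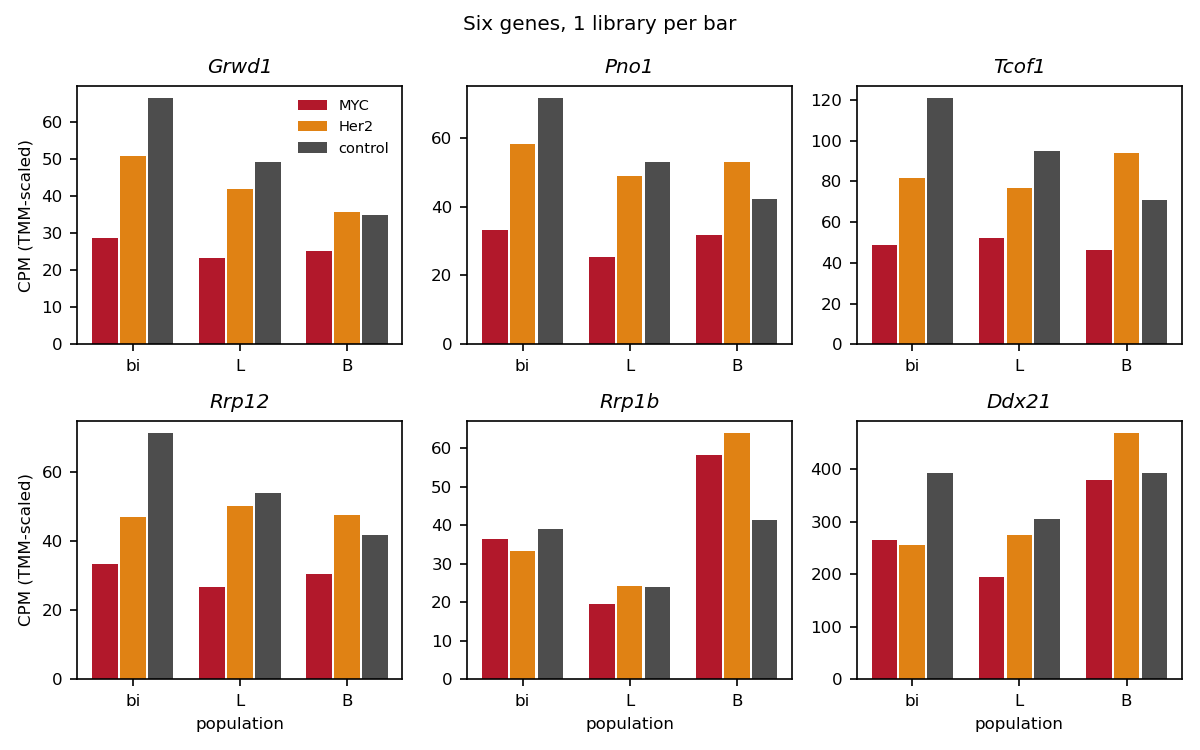
Bars give CPM of Grwd1, Pno1, Tcof1, Rrp12, Rrp1b and Ddx21 in each of the 9 libraries, by population, with MYC in red, Her2 in orange and control in grey. In the first 4 genes the MYC bar is the lowest in every population, while Rrp1b follows population, at 19.4 to 24.2 CPM in L, 33.3 to 39.0 in bi and 41.3 to 63.9 in B.

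The ratio of L over B differed between the arms. The median log2 ratio of L over B was -0.30 with MYC (32 of 40 members below 0, against 46.4% of all genes), -0.08 with Her2 (25 below 0, against 48.3%) and 0.39 in control (34 above 0, against 49.8% of all genes). The MYC value depended on the scaling: it was -0.0155 with library totals in place of TMM, with 21 below 0, and 0.00577 on deposited TPM, with 20 below 0, where the medians of all genes were 0.36 and 0.12. Beside these values, 7 of 20 G1/S genes rose in L (median 0.55), and of the cell type markers all 8 epithelial and 6 of 8 luminal genes rose, while 1 luminal, 3 of 8 basal and 5 of 7 fibroblast genes fell. The part of these differences in the members' values was not tested. Of the other biogenesis genes 3 rose and 8 fell in L, where 11.5% of all genes were called higher and 9.26% lower. Among the 3 and 8 were the small-subunit genes Wdr75 (0.62, edgeR adjusted p = 0.0245) and Wdr46 (-0.97, adjusted p = 0.0077) and the polymerase I gene Twistnb (-0.68, adjusted p = 0.0265).

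For bi against B edgeR called 0 members (13% of all genes), DESeq2 and limma-trend also called 0, and 7 members were higher and 2 lower at an unadjusted p under 0.05, against 14.1% and 12.1% of all genes. With library totals in place of TMM 5 members rose and 1 fell, where 14.5% of all genes were called, and deposited TPM gave 3 calls, where 9.28% were. The median was 0.15, with 28 of 40 above 0 (52.6% of all genes). Rrs1 (chromosome 1, 9545408 to 9547455, plus strand), a large-subunit assembly factor, was at 76.3 CPM with MYC, 80.1 with Her2 and 112 in control in bi, at 66.4, 90.2 and 90.2 in the same arms of L, and at 51.8, 73.0 and 57.6 in those of B. The bi libraries were above all B libraries, with a log2 fold change of 0.55 (SE 0.18, edgeR adjusted p = 0.0812). Bysl (chromosome 17, 47599331 to 47611492, minus strand), for bystin of the small-subunit precursor, was at 44.4 CPM with MYC, 59.6 with Her2 and 76.0 in control in bi, at 32.1, 52.6 and 58.2 in the same arms of L, and at 35.5, 46.3 and 38.5 in those of B. Its log2 fold change of bi over B was 0.55 (adjusted p = 0.0899), close to those of Grwd1 (0.54) and Nop58 (0.53). The value rested on the controls: the median ratio of bi over B was 0.04 with MYC, -0.08 with Her2 and 0.66 in control, where 38 of 40 were above 0 (49.5% of all genes). With Her2, 27 were below 0 (45.7%), and the median was 0.0105 on TPM and 0.00921 with library totals. Without B control the median was -0.07, and without bi control -0.01. Without B control 2 members, Ddx21 and Rrp1b, fell in bi, where 6.17% of all genes did. Beside these values 8 of 20 G1/S genes (median 0.62), 7 of 8 epithelial and 3 of 8 luminal markers rose in bi, while 1 luminal and 3 of 7 fibroblast markers fell, and their part was not tested.

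For bi against L 0 members were called by edgeR (0.751% of all genes), DESeq2 or limma-trend, and 1, Rrp1b, was higher at an unadjusted p under 0.05 (4.05% of all genes). Of the members, 38 of 40 had a log2 fold change above 0 (50.1% of all genes) with a median of 0.20. Rrp1b was at 0.70 (SE 0.20, edgeR adjusted p = 0.225), Pno1 at 0.36 and Bop1 at 0.35. Wdr43 (chromosome 17, 71615895 to 71659031, plus strand), a processome protein, was at 134 CPM with MYC, 152 with Her2 and 189 in control in bi, at 104, 122 and 148 in the same arms of L, and at 150.5, 154 and 142 in those of B. It was higher in bi than in L in every arm by a like amount, 0.34 on average, though the groups overlapped. The median of the members was 0.28 with MYC, -0.01 with Her2 and 0.35 in control, where all 40 were above 0 (52% of all genes). With Her2, 21 were below 0, against 51.1% of all genes. These values depended on the scaling. With library totals in place of TMM they were 0.0226 with MYC, 0.24 with Her2 and 0.24 in control, and those of all genes -0.22, 0.23 and -0.09. On deposited TPM they were 0.0250 with MYC, 0.32 with Her2 and 0.23 in control, and those of all genes -0.10, 0.13 and -0.03. Without bi control the overall median was 0.04. Beside these values, 2 of 8 epithelial and 4 of 8 luminal markers fell in bi and 0 basal markers were called, though all 8 were above 0, and their part was not tested.

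Several members share their locus with other transcripts. Inside 7 of them (Ncl, Gnl3, Nop56, Nop58, Dkc1, Wdr43 and Ppan) the annotation places 21 small nucleolar RNA genes, which held at most 0.443% of their host's reads. Another annotated gene overlaps 20 members, always on the opposite strand. The overlapping genes held more reads than the member for Dimt1, Gnl3 and Bop1, and between 82.9% and 94.5% of the member's reads for Rrp9, Polr1e and Bysl. The libraries are stranded per the labels, but how strand was used in counting is not given in the sources used here, so levels of these 6 genes are less certain. For Pno1, called between MYC and Her2, the overlapping gene Wdr92 held 28.7% of the member's reads.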

How the data were processed

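RNA was measured in 9 libraries of sorted Comma-1D cells. Deposited per library, per the file headers, were estimated counts (NumReads), TPM, and transcript-model lengths and effective lengths for each gene. Salmon 0.9.1 and the mm10 build are named in the submitters' processing notes. The annotation release and the strand setting are not given in the sources used here. Labels call the molecule polyA RNA, while the protocol describes ribosomal RNA depletion.

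Symbols and mm10 coordinates came from GENCODE: 53544 of 54281 identifiers matched with version, 563 without, and 174 had no symbol. The estimated counts as deposited were rounded to whole numbers. Genes passed at a minimum count of 10 and total of 15 (edgeR filterByExpr by arm), which left 23834. The main test was edgeR 4.0.16 (R 4.3.3) quasi-likelihood with population and arm as additive terms, TMM scaling and Benjamini-Hochberg adjustment, threshold 0.05, with 4 residual degrees of freedom (3 with a term for 1 library). SE was the fold change over the root of F. Ratios within a population or arm used log2 CPM with a prior count of 2 and had no test. The script was tested on simulated counts drawn from the additive model, with no difference between populations in the effect of an arm. That run therefore cannot show how the test does where such a difference exists. Since nothing says the libraries came from separate cultures, p-values measure only the spread between these samples. With 1 library per population and arm, that spread is the departure from additive effects. A difference between populations in the effect of an arm therefore widens it and cannot be told from noise between like samples. CPM was computed here. The deposited TPM served for levels and, with a pseudocount of 1, as an alternative.

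Alternatives were DESeq2 1.42.0, limma 3.58.1 trend, other scalings, no filter, an effective-length offset, no block, totals without ribosomal, mitochondrial and small RNA loci, and each library, population or arm left out. For ratios within a population or arm, 3 scalings were added after seeing the data. All 40 members could be named, and values in every library were given for the 4 with the largest called change per comparison (else the smallest p) and the 3 highest by TPM. Members and lists were chosen with earlier results of these data known. Figures used matplotlib 3.10.9.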

Additional observations from a re-analysis of the deposited data

Results flagged for a closer look

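The medians of the members had opposite signs in different populations or arms, in some cases close to 0. These are ratios of 1 library over 1, and the difference between them was not tested as such. The added term for B Her2 in the report, which rests on all other libraries, called 0 members. The median log2 ratio of Her2 over control was 0.27 in B, with 37 of 40 members above 0, and -0.44 in bi, with 40 below 0. The median of L over B was -0.30 with MYC, with 32 members below 0, and 0.39 in control, with 34 above 0. The median of bi over B was -0.0819 with Her2, with 27 below 0 (45.7% of all genes), and 0.66 in control, with 38 above 0. The median of bi over L was -0.0137 with Her2, with 21 below 0 (51.1% of all genes), and 0.35 in control, with 40 above 0. The 2 values with Her2 were above 0 on TPM and with library totals, and that of L over B with MYC was 0.00577 on TPM. The bi control library, highest for 34 members, enters 3 of these contrasts.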

How the results depend on the processing

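The median log2 fold change of the members stayed below 0 in all 21 settings for MYC over control (-0.68 to -0.31) and MYC over Her2 (-0.47 to -0.20), and above 0 for bi over L (0.04 to 0.34). For Her2 over control it was -0.11 and became 0.0680 without the bi population, with a range of -0.25 to 0.0383 over libraries left out (the highest without bi control). For bi over B it was 0.15 and became -0.11 without the control arm, with a range of -0.0737 to 0.30 over libraries left out (the lowest without B control, and -0.0138 without bi control). For L over B it was -0.02, without a stable sign: -0.19 without the control arm, 0.0175 without TMM, 0.00616 without ribosomal, mitochondrial and small RNA loci, 0.00794 without the arm block, 0.0494 without the Her2 arm, 0.11 without the MYC arm, and -0.22 (without B control) to 0.0912 over libraries left out. Members called for MYC against control were 0, but (with the share of all genes called in the same setting) 3 without TMM (1.07%), 4 with no filter (2.38%), 9 on TPM (2.18%), 4 with DESeq2 (4.05%), 14 without B (3.45%) and 0 to 4 over libraries left out. Members called for MYC against Her2 were 1, but 4 without TMM (5.22%), 5 with no filter (5.26%), 0 without the population block (0.0252%), 3 on TPM (2.1%), 3 with DESeq2 (7.92%), 8 without B (8.45%), 0 without L (1.14%), 0 without bi (1.84%) and 0 to 7 over libraries left out. For L against B they were 2, but 4 without TMM (21.3%), 1 without the arm block (14.1%), 4 on TPM (16.9%), 1 without any one arm (12.3% to 17.4%) and 1 to 7 over libraries left out. For bi against B they were 0, but 6 without TMM (14.5%), 3 on TPM (9.28%), 1 without the Her2 arm (9.93%) and 0 to 2 over libraries left out. In each of these comparisons the most calls over libraries left out came without B control. In that setting 0.664% of all genes were called for MYC against control and 6.07% for MYC against Her2. For L against B and bi against B the shares were 21.6% and 13.2%. The added term for MYC in B had a median of 0.35, or 0.13 without TMM, and over all genes -0.06, or -0.27 without TMM. Within populations, TPM gave medians for MYC over control of -0.39 in B, for Her2 over control of 0.0831 (B), -0.40 (L) and -0.30 (bi), and for MYC over Her2 of -0.53 (B), -0.19 (L) and -0.48 (bi). Library totals without TMM gave -0.19 in B and -0.46 in L for MYC over control, -0.29 in L and -0.25 in bi for Her2 over control, and -0.44 (B), -0.17 (L) and -0.36 (bi) for MYC over Her2. DESeq2 size factors gave 0.0278 for MYC over control in B and -0.0240 for bi over B with MYC. Within arms, TPM gave 0.00577 for L over B with MYC, 0.0105 for bi over B with Her2 and 0.32 for bi over L with Her2. For these last 2, totals without TMM gave 0.00921 and 0.24, and leaving out ribosomal RNA loci gave 0.0185 for bi over L with Her2. TPM and library totals also moved the median of all genes by over 0.1 in some ratios, not all of which the report gives. For MYC over control in L, library totals put that median at 0.19, against 0.04 with TMM. For Her2 over control they put it at -0.19 in L and 0.098 in bi, against -0.02 and -0.08 with TMM. The cause of these changes was not tested. Over all genes, calls for MYC against control were 87, or 4 without the block and 966 with DESeq2. Those for Her2 against control were 5 and ranged over 0 to 619, for MYC against Her2 1089 and 6 to 2089, for L against B 4953 and 2820 to 5574, for bi against B 3094 and 1430 to 3796, and for bi against L 179 and 2 to 698. The main model pairs arms by population and populations by arm. Replicate numbers add no pairing, since each population and arm has 1 library. The thinnest member value, Dimt1 in its shallowest library, rested on 476 estimated reads, while 1 library a group leaves differences within a population without an error.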
